A study of Homo sapiens with 26 samples.

Results

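The 10 genes described here are DUSP4, DUSP5, DUSP6, SPRY2, SPRY4, SPRED1, SPRED2, ETV4, ETV5 and PHLDA1, which are read in many studies as outputs of ERK signalling and most of whose proteins restrain that pathway in turn. They were chosen by name for their place in the pathway and not by a cutoff on a measured value, but with earlier results of these data known. All 10 were found by symbol, each on 1 row, among the 19704 gene symbols of the expression table. A mean of at least 1 FPKM (fragments counted relative to transcript length and library size) left 11838 genes to test, and 8 of the 10 were among them. DUSP4 and DUSP6 lay below that filter.

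The cells were U2OS, an established human osteosarcoma line, here in a version that carries luciferase under the Arntl clock gene promoter. They were changed to acidic medium (pH 6.3) or neutral medium (pH 7.4) and harvested at every 4 h from 4 to 52 h, with 1 library of polyadenylated RNA per medium and time, 13 libraries per medium and 26 in all. Both media were buffered with PIPES and HEPES (25 mM each), held 5% serum and also 0.1 µM dexamethasone, a synthetic glucocorticoid that sets cultured cells to a common clock phase, and the dishes stood sealed in air without added carbon dioxide, so every library comes from glucocorticoid-treated cells with fresh serum. Dishes of the first plate set gave 28 to 52 h and dishes of the second gave 4 to 24 h, so time in medium and plate set cannot be told apart. Libraries were not replicated within a medium and time, and an SD or a p-value below therefore measures the spread over time points, which holds change over time as well as noise. The tests take time points as independent, and neighbouring harvests may not be.

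In the textbook pathway, growth factor receptors switch on RAS, RAS recruits RAF, and RAF activates MEK, which activates the ERK kinases. ERK raises the transcription of ETS factors and of its own brakes: dual-specificity phosphatases that remove the activating phosphates from ERK, and Sprouty and SPRED proteins that act at the level of RAS and RAF. These transcripts are short-lived, so their levels are widely used as a record of recent ERK output, although other signals also reach several of them.

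Low FPKM values are spaced by whole fragments, and that spacing put 24 libraries between 20.0 and 36.1 M (mega) fragments, the acid library at 8 h at 11.3 M and the neutral library at 12 h at 9.82 M. Those 2 libraries fall at the hours of the widest differences below, and values without them are given beside the results of each tested member in 4 to 24 h. The level followed transcript GC content with a correlation beyond 0.5 in 4 further libraries, pH 6.3 at 20 h and pH 7.4 at 28, 44 and 48 h. The summed level of 10 mesenchymal and bone markers was 2558 to 4004 FPKM at pH 6.3 and 3842 to 5904 FPKM at pH 7.4, with SP7 at 0 in all 26 libraries and COL1A2 below 1 FPKM on average in each medium. Of the 8 tested, 0 were higher and 4 lower in acid (COL1A1, COL6A3, FN1 and ALPL), with a median log2 difference of -0.44. Of all tested genes 22.4% were higher and 37.3% lower in acid. VIM averaged 649.2 FPKM at pH 6.3 and 601.8 FPKM at pH 7.4. The part of these marker differences in the member results was not tested. The summed level of 10 leukocyte markers was 8.574 to 18.96 FPKM at pH 6.3 and 14.57 to 40.84 FPKM at pH 7.4, most of it LCP1, with CD3E near 0. LCP1 was lower in acid (log2 difference -1.27), whereas CD68 was higher, at 3.124 FPKM at pH 6.3 against 0.8157 FPKM at pH 7.4 (1.02). For 5 endothelial markers the highest sum was 1.71 FPKM in acid against 3.109 FPKM in neutral medium, and for 10 epithelial markers the sum was 149.6 to 328.3 FPKM at pH 6.3 and 160.6 to 321.3 FPKM at pH 7.4, most of it KRT8 and KRT18. Of 6 tested epithelial markers 0 were higher and 5 lower in acid (median log2 difference -0.61). FPKM is a share of each library, so less of a transcript and more of the remaining RNA cannot be told apart. The median log2 difference of all tested genes between the media was -0.12, and the differences below are to be read beside it.

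All members called between the media in the early hours were higher in acid, and all called in the late hours were lower. PHLDA1 was the only member called in both. The late log2 differences of SPRY4, SPRY2 and ETV5 were positive without passing (0.32, 0.21 and 0.31), and the early one of SPRED1 was negative without passing (-0.18). Within 4 to 24 h, SPRY4, SPRY2, ETV5 and PHLDA1 were higher at pH 6.3 and no member was lower by the test, against 11.9% of all tested genes higher and 28% lower. Within 28 to 52 h, SPRED1, ETV4 and PHLDA1 were lower and no member was higher, against 33.4% of all tested genes lower and 25.2% higher. Over all 13 times SPRY4, SPRY2 and ETV5 were higher and SPRED1 was lower, while 22.4% of all tested genes were higher and 37.3% were lower. The 3 lower calls among 8 tested members in 28 to 52 h are close to the share of all genes, and the 1 lower call over all times lies below it. Without the 2 shallow libraries and the 4 with a GC trend, 1 early call (SPRY4) and 3 late ones were left. The interaction described below then had 0 calls among the members. Over all tested genes this left 494 higher and 759 lower early, against 1414 and 3316 with all libraries. In the interaction it left 2 higher and 0 lower, against 1248 and 777. With the time point as a block, the partner libraries of those 6 then add nothing to these values. The calls come from limma on log2(FPKM + 1) with the time point as a block, at a Benjamini-Hochberg adjusted p below 0.05 over the 11838 genes, and fold changes are on that scale, which understates the change of low genes.

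**Figure D1:**
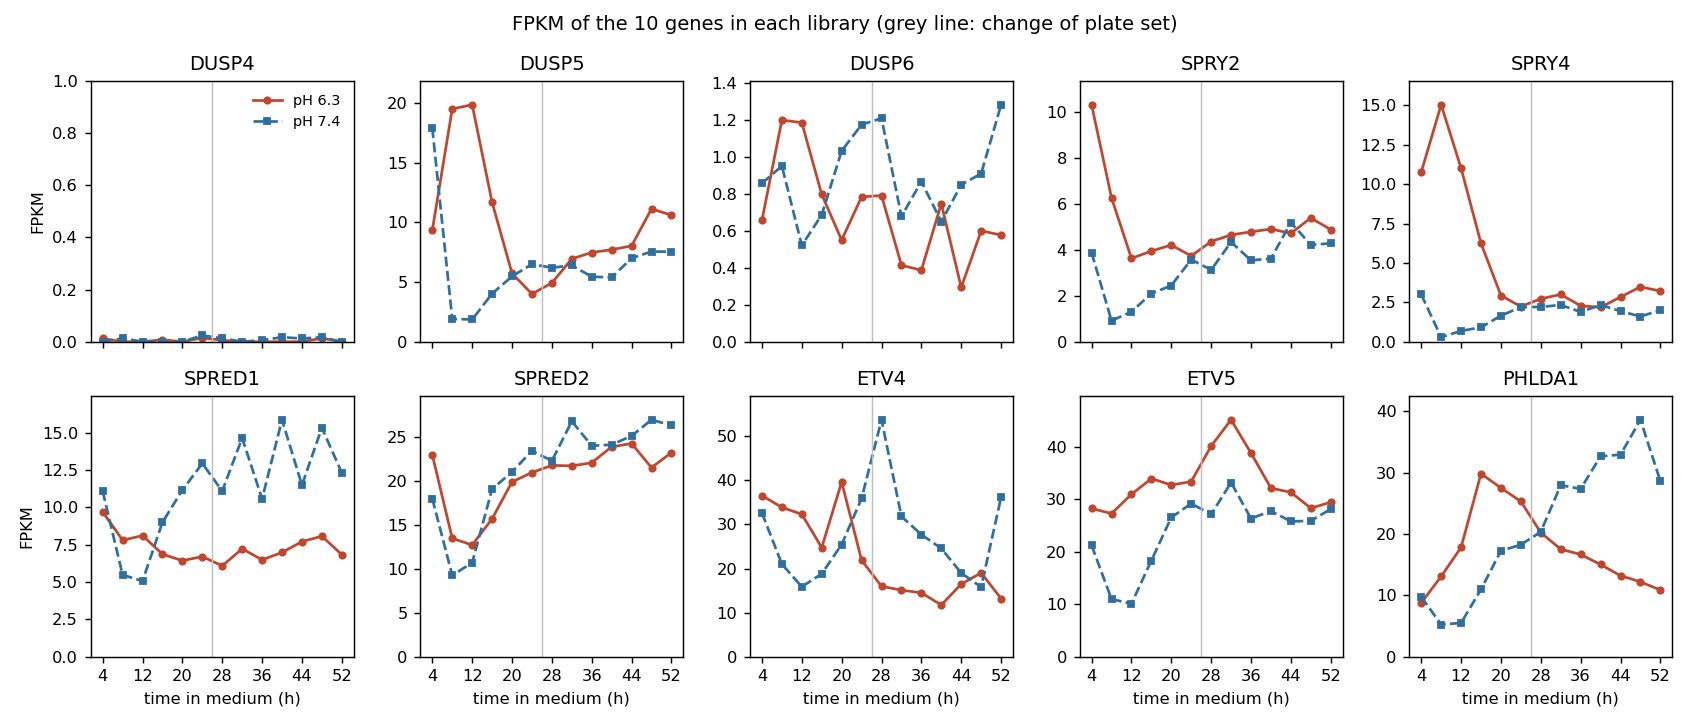
FPKM of each of the 10 genes (y axis, linear, from 0) against hours in medium (x axis), with red circles for pH 6.3, blue squares for pH 7.4 and 1 library per point. At 8 and 12 h SPRY4 stood at 15.04 and 11.01 FPKM at pH 6.3 against 0.2865 and 0.688 FPKM at pH 7.4, and from 32 h on PHLDA1 at pH 6.3 lay below its pH 7.4 value at each time.

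The time courses show that much of the early difference formed at 8 and 12 h. At those hours most members were lowest in neutral medium, and some were highest in acid. Of the 9 detected members 8 had their lowest pH 7.4 value of the whole 52 h at 8 or 12 h, the exception being ETV4, whose 15.8 FPKM at 48 h was just under its 15.9 FPKM at 12 h. At pH 6.3 this was so for 3 of 9, namely SPRY2, SPRED2 and ETV5. Among all tested genes 32.2% at pH 6.3 and 17.7% at pH 7.4 had their lowest value at those hours. At pH 6.3, DUSP5, DUSP6 and SPRY4, 3 of 9, had their highest value there, against 13% of all tested genes. At pH 7.4 this was so for 0 of 9, against 16.3% of all tested genes. The pH 6.3 library at 12 h and the pH 7.4 library at 8 h were not among the shallow ones (20.0 and 28.6 M fragments), but the other library of each of these hours was. The pattern of lowest and highest values was noticed in the data and is given without a test, and the part of depth in it was not tested.

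**Figure D2:**
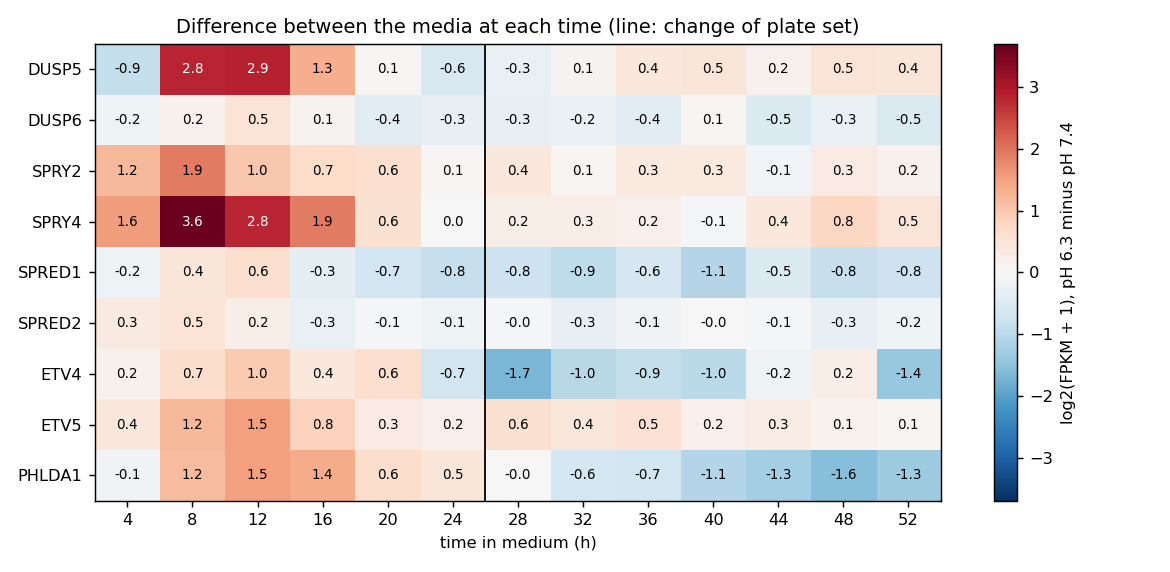
Difference in log2(FPKM + 1), pH 6.3 minus pH 7.4, for 9 genes (rows, DUSP4 left out) at each time (columns, h), with red for higher and blue for lower at pH 6.3 and the value printed in each cell. The strongest red lies at 8 and 12 h, reaching 3.64 for SPRY4 and 2.86 for DUSP5, and the blue of SPRED1, ETV4 and PHLDA1 fills most cells from 28 h on.

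Among the phosphatase genes DUSP4 and DUSP6 were barely expressed, and DUSP5 was at a middle level among the members. DUSP4, a nuclear phosphatase of ERK, JNK and p38 (chromosome 8, GRCh38), was listed at 0 in 14 of 26 libraries, 8 of pH 6.3 and 6 of pH 7.4. Its highest value was 0.0149 FPKM at pH 6.3 and 0.0242 FPKM at pH 7.4, so no difference was measurable.

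DUSP5 (chr10:110497838-110511544, GRCh38), a nuclear phosphatase specific for ERK, swung widely in the first day. In 4 to 24 h its level had a lowest, median and highest value of 4.00, 10.5 and 19.9 FPKM at pH 6.3 and of 1.86, 4.75 and 17.9 FPKM at pH 7.4. At 4 h it stood at 9.34 FPKM in acid against 17.9 FPKM in neutral medium, and at 8 h it stood at 19.5 FPKM in acid against 1.91 FPKM. The order of the media thus turned between adjacent harvests, and by 20 h the values were close, at 5.73 FPKM in acid and 5.48 FPKM in neutral medium. In 28 to 52 h the lowest, median and highest values were 4.93, 7.72 and 11.1 FPKM at pH 6.3 and 5.38, 6.40 and 7.55 FPKM at pH 7.4, with acid higher at 6 of 7 times and the groups overlapping. None of its differences passed the test (log2 difference 0.57, SE 0.28, adjusted p = 0.0883 over 13 times; 0.94, adjusted p = 0.0754 in 4 to 24 h; 0.26, adjusted p = 0.576 in 28 to 52 h). Without the 2 shallow libraries, which removes both within-time pairs at 8 and 12 h, the early log2 difference of DUSP5 was -0.02, so its sign rests on those hours. With no block, so that the partner libraries of those 2 stay in, it was 0.56 (adjusted p = 0.217).

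DUSP6 (chr12:89347232-89353271), the cytoplasmic ERK phosphatase that is often taken as the most direct transcript of ERK activity, was barely expressed. Its lowest, median and highest levels over 4 to 52 h were 0.294, 0.658 and 1.20 FPKM at pH 6.3 and 0.522, 0.868 and 1.28 FPKM at pH 7.4. In 28 to 52 h it was lower in acid at 6 of 7 times, averaging 0.545 ± 0.188 FPKM at pH 6.3 and 0.922 ± 0.243 FPKM at pH 7.4 (SD, n = 7 each), with overlapping groups. It had no test in the filtered table. With no filter on low values its log2 difference was -0.31 (SE 0.10, adjusted p = 0.0214) in 28 to 52 h and -0.17 (adjusted p = 0.102) over 13 times, where an exact two-sided sign-flip permutation test of the 13 differences gave p = 0.0676. An antisense gene, AC024909.2, shares 1875 exonic bases with DUSP6 in GENCODE 29, and no source used here says whether the quantification was by strand.

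The Sprouty genes SPRY4 and SPRY2 were early on higher in acid than in neutral medium and met the neutral level within a day. SPRY2 (chr13:80335976-80340951, GRCh38) and SPRY4 (chr5:142310427-142326455) encode membrane-recruited inhibitors that block growth factor signalling upstream of RAF. The 250 bases before a start of each, from RefSeq (GRCh38.p14, both on the minus strand), are shown because these genes and DUSP5 parted most between the media at 8 h; capitals mark CCGGAA, the core letters of an ETS site.
SPRY2 chr13:80341127-80341376: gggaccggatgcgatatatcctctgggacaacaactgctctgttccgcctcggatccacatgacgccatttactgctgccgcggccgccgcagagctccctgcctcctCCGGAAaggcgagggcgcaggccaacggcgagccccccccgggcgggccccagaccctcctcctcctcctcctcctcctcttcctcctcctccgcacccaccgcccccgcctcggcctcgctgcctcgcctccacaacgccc
SPRY4 chr5:142324248-142324497: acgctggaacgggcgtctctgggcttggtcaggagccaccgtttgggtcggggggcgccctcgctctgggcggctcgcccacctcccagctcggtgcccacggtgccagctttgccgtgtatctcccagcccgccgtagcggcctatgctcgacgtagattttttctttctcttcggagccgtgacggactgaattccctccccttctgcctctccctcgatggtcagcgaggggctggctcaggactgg
CCGGAA was searched on both strands from 250 bases before to 50 after each start and lay at -142 to -137 before this SPRY2 start, and those letters are not in this SPRY4 window. The other SPRY2 starts in RefSeq did not hold them either. The RefSeq table held 9 starts of 6 members (DUSP6, SPRY2, SPRY4, SPRED1, SPRED2 and PHLDA1), of which 2 held CCGGAA, against 17.2% of 35116 promoters of the same length. TGANTCA, the AP-1 letters, lay in 1 of the 9, a start of SPRED2, against 7.71% of all, and neither TGACGTCA (CRE, 1.85% of all) nor CACGTG (E-box, 7.26% of all) lay in any of the 9. A match is a stretch of letters and no evidence of binding.

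SPRY4 had 10.8, 15.04, 11.01, 6.24, 2.93 and 2.23 FPKM at 4, 8, 12, 16, 20 and 24 h at pH 6.3, against 2.998, 0.2865, 0.688, 0.912, 1.65 and 2.197 FPKM at the same hours at pH 7.4. It was higher in acid at all 6 of these times, 52.5-fold at 8 h and 16.0-fold at 12 h in FPKM, and the media met at 24 h. Both of these ratios rest on a neutral value below 1 FPKM and on a pair with 1 shallow library. On the log2(FPKM + 1) scale SPRY4 differed by 3.64 at 8 h and 2.83 at 12 h. In 28 to 52 h its lowest, median and highest levels were 2.19, 2.84 and 3.48 FPKM at pH 6.3 and 1.60, 2.01 and 2.33 FPKM at pH 7.4, with overlap. The log2 difference was 1.76 (SE 0.34, 3.38-fold higher in acid, adjusted p = 0.00113) in 4 to 24 h, 0.32 (SE 0.31, adjusted p = 0.389) in 28 to 52 h and 0.98 (SE 0.28, adjusted p = 0.00693) over 13 times. The early value of SPRY4 was 1.02 without the 2 shallow libraries (adjusted p = 0.0129), and its value over 13 times was 0.57 (adjusted p = 0.011). Without those and the 4 with a GC trend the value over 13 times no longer passed (0.62, adjusted p = 0.057, within a range of 0.000987 to 0.057 over 23 alternatives). Over the 18 alternatives its early adjusted p ran from 4.04e-05 to 0.0796, with the highest for 16 to 24 h alone.

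SPRY2 reached its highest acid level at the first harvest. It had 10.3, 6.27, 3.63, 3.95, 4.21 and 3.74 FPKM from 4 to 24 h at pH 6.3, against 3.88, 0.915, 1.31, 2.10, 2.45 and 3.58 FPKM at pH 7.4. Acid was higher at each of the 6 times, while the ranges of the media overlapped slightly, with the neutral value at 4 h above the acid values at 12 and 24 h. From 28 h on the lowest, median and highest levels were 4.36, 4.79 and 5.39 FPKM at pH 6.3 and 3.13, 4.22 and 5.19 FPKM at pH 7.4. The log2 difference was 0.91 (SE 0.18, adjusted p = 0.00153) in 4 to 24 h, 0.21 (SE 0.17, adjusted p = 0.293) in 28 to 52 h and 0.54 (SE 0.15, adjusted p = 0.00584) over 13 times, of which 12 had acid higher. Without the 2 shallow libraries the early value was 0.63 (adjusted p = 0.0174, within a range of 0.000228 to 0.0885 over 18 alternatives).

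The SPRED genes, whose products bind neurofibromin and bring it to RAS at the membrane, did not follow the Sproutys. SPRED1 (chr15:38252326-38357249) had lowest, median and highest levels of 6.09, 6.99 and 8.07 FPKM in 28 to 52 h at pH 6.3, against 10.6, 12.3 and 15.9 FPKM at pH 7.4. Every acid library of those hours lay below every neutral one, as it did for 23.4% of all tested genes, and 2 of the 8 tested members (SPRED1 and PHLDA1) showed this. The log2 difference was -0.79 (SE 0.16, 1.73-fold lower, adjusted p = 0.000594). In 4 to 24 h its levels were 6.43, 7.33 and 9.70 FPKM at pH 6.3 and 5.07, 10.1 and 12.9 FPKM at pH 7.4, with acid higher at 8 and 12 h and lower at the other 4 times, and the difference did not pass (-0.18, SE 0.17, adjusted p = 0.439). Leaving out the 2 shallow libraries removes the pairs at 8 and 12 h. The early difference of SPRED1 was then -0.52 and passed (adjusted p = 0.0186, within a range of 0.0117 to 0.993 over 18 alternatives). With no block, so that the partner libraries of those 2 stay in, it was -0.32 and did not pass (adjusted p = 0.127). Over 13 times SPRED1 was 1.42-fold lower (log2 difference -0.51, SE 0.14, adjusted p = 0.00501), a call that quantile normalization ended (-0.35, adjusted p = 0.0578, within a range of 3.58e-05 to 0.0578 over 23 alternatives).

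SPRED2 (chr2:65310851-65432637) differed little between the media. Its lowest, median and highest levels in 28 to 52 h were 21.5, 22.1 and 24.3 FPKM at pH 6.3 and 22.3, 25.1 and 27.0 FPKM at pH 7.4, and those in 4 to 24 h were 12.7, 17.8 and 23.0 FPKM at pH 6.3 and 9.27, 18.6 and 23.4 FPKM at pH 7.4. Acid was the lower medium at all 10 times from 16 h on and the higher at 4, 8 and 12 h, with the ranges overlapping in each set. No test passed (log2 difference -0.03, SE 0.08, adjusted p = 0.755 over 13 times; 0.09, SE 0.11 in 4 to 24 h; -0.14, SE 0.10 in 28 to 52 h), which with these errors does not show that the levels were equal. Its early value was -0.04 without the 2 shallow libraries.

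The PEA3-type ETS factors ETV4 and ETV5, transcription factors that carry the ERK signal to promoters, took different courses in acid. ETV5 (chr3:186046308-186110318) was higher at pH 6.3 at 13 of 13 times. Its lowest, median and highest levels were 27.3, 31.8 and 33.9 FPKM in 4 to 24 h at pH 6.3 against 10.1, 19.8 and 29.2 FPKM at pH 7.4, and 28.3, 32.1 and 45.1 FPKM in 28 to 52 h at pH 6.3 against 25.8, 27.1 and 33.2 FPKM at pH 7.4. The acid level was nearly flat through the first day while the neutral level dipped at 8 and 12 h, to 10.99 and 10.1 FPKM. The log2 difference was 0.75 (SE 0.16, 1.68-fold higher in acid, adjusted p = 0.00195) in 4 to 24 h, 0.31 (SE 0.15, adjusted p = 0.0758) in 28 to 52 h and 0.51 (SE 0.12, adjusted p = 0.00152) over 13 times. The exact two-sided sign-flip permutation test of the 13 differences gave 0.000244, the smallest p it can give. That test takes the 13 differences as independent, which successive harvests of a course may not be. The early value of ETV5 was 0.43 without the 2 shallow libraries (adjusted p = 0.0274, within a range of 0.000495 to 0.0784 over 18 alternatives). Its late value of 0.31 then passed (adjusted p = 0.0147, within a range of 0.0147 to 0.168 over 17 alternatives). Without those libraries and with no block, the late value of 0.31 did not pass (adjusted p = 0.0663). In GENCODE 29 ETV5 shares 164 exonic bases with DGKG on the same strand.

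ETV4 (chr17:43527844-43579620) had lowest, median and highest levels of 21.9, 33.1 and 39.6 FPKM in 4 to 24 h at pH 6.3 against 15.9, 23.2 and 35.9 FPKM at pH 7.4, and acid was higher at 5 of those 6 times. In 28 to 52 h the levels were 11.7, 15.1 and 19.0 FPKM at pH 6.3 against 15.8, 27.7 and 53.7 FPKM at pH 7.4, and acid was lower at 6 of 7 times, the exception being 48 h. The highest neutral value, at 28 h, and the lowest, at 48 h, were both in libraries with a GC trend. Those trends had opposite signs (correlations of 0.65 and -0.64), and their part in the 2 values was not tested one by one. The difference was 0.35 (SE 0.23, adjusted p = 0.239; 0.12 without the 2 shallow libraries) in 4 to 24 h and -0.85 (SE 0.21, 1.80-fold lower, adjusted p = 0.00307) in 28 to 52 h. Under the 17 alternatives the late difference ran from -1.08 to -0.71 and its adjusted p from 7.63e-05 to 0.013, the correction for GC content included. Over 13 times the difference was -0.29 (adjusted p = 0.244). It passed without the 2 shallow libraries (-0.50, adjusted p = 0.049, within a range of 0.0261 to 0.461 over 23 alternatives). Without them and with no block, it was -0.41 and did not pass (adjusted p = 0.0798). ETV4 shares 68 exonic bases with DHX8 on the opposite strand.

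PHLDA1 (chr12:76025447-76033932), which encodes a pleckstrin-homology-like domain protein induced by growth factors, crossed over between the media. The 250 bases before a RefSeq start of PHLDA1 (GRCh38.p14, chromosome 12, minus strand) are shown because its difference turned sign with time. This start lies within the gene span given above. These bases also hold the other match, in capitals, here as TTCCGG, which is CCGGAA on the opposite strand, at -89 to -84.
PHLDA1 chr12:76031777-76032026: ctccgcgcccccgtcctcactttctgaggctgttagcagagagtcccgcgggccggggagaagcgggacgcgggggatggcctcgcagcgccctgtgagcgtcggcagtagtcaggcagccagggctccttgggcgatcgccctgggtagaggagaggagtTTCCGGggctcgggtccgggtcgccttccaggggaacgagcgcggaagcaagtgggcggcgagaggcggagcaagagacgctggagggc
At 4, 8, 12, 16, 20 and 24 h PHLDA1 had 8.77, 13.1, 17.8, 29.8, 27.5 and 25.3 FPKM at pH 6.3, against 9.78, 5.26, 5.51, 10.99, 17.3 and 18.3 FPKM at pH 7.4. At 28, 32, 36, 40, 44, 48 and 52 h it had 20.2, 17.5, 16.7, 15.04, 13.2, 12.2 and 10.9 FPKM at pH 6.3, against 20.4, 28.0, 27.4, 32.7, 32.9, 38.6 and 28.6 FPKM at pH 7.4. In acid the level peaked at 16 h and was lower at each later harvest, and in neutral medium it was at its lowest at 8 h and at its highest at 48 h. Every late acid value lay under every late neutral one, although the values at 28 h were 20.2 and 20.4 FPKM.

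The log2 difference of PHLDA1 was 0.84 (SE 0.22, 1.79-fold higher, adjusted p = 0.00706) in 4 to 24 h and -0.94 (SE 0.20, 1.92-fold lower, adjusted p = 0.000932) in 28 to 52 h. Over 13 times the early and late values averaged out to -0.12 (SE 0.26, adjusted p = 0.712). Without the 2 shallow libraries the early value was 0.58 and no longer passed (adjusted p = 0.103, within a range of 0.00106 to 0.166 over 18 alternatives), and the late value was the same. Without them and with no block, so that their partner libraries stay in, the early value was 0.78 and passed (adjusted p = 0.0286). Antisense genes AC011611.3 and AC011611.4 share 553 and 779 exonic bases with PHLDA1.

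**Figure D3:**
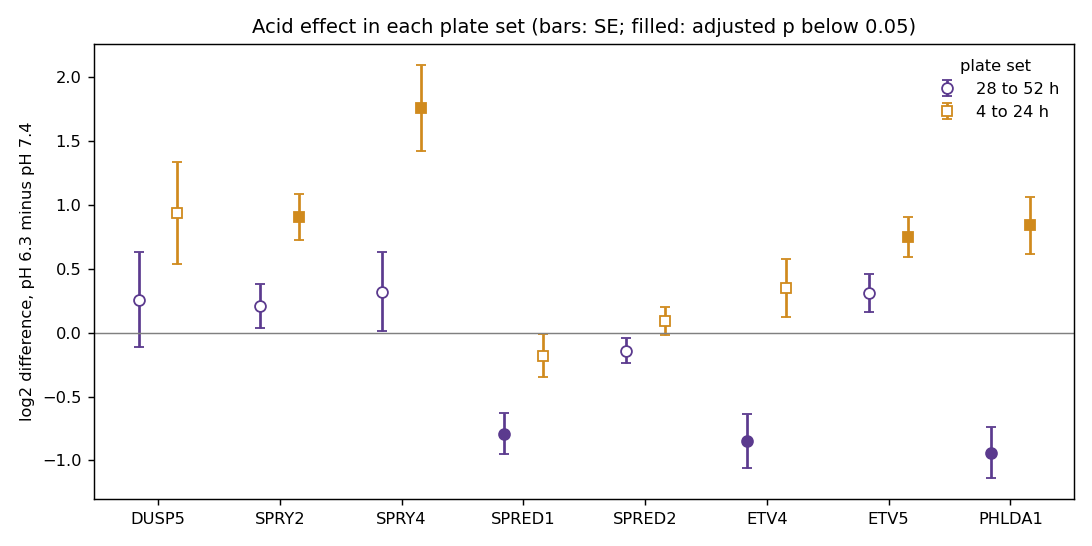
Log2 difference, pH 6.3 minus pH 7.4 (y axis), of the 8 tested genes within 28 to 52 h (purple circles) and within 4 to 24 h (orange squares), with SE as bars and filled symbols for an adjusted p below 0.05. The early values of SPRY2, SPRY4, ETV5 and PHLDA1 are filled above 0 and the late values of SPRED1, ETV4 and PHLDA1 are filled below 0.

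Whether the acid effect itself differed between 28 to 52 h and 4 to 24 h was tested as an interaction. It was lower late than early for PHLDA1 (-1.77, SE 0.29, adjusted p = 0.00172), SPRY4 (-1.43, SE 0.46, adjusted p = 0.0426) and ETV4 (-1.20, SE 0.31, adjusted p = 0.0175). The other 5 tested members had the same sign without passing, and none was called higher. The sign of DUSP5 turned without the 2 shallow libraries (0.27). Of all tested genes 6.56% were called lower and 10.5% higher. Those 5 were SPRY2 (-0.70, adjusted p = 0.0662), DUSP5 (-0.68, adjusted p = 0.42), SPRED1 (-0.61, adjusted p = 0.0822), ETV5 (-0.44, adjusted p = 0.171) and SPRED2 (-0.23, adjusted p = 0.309). Leaving out any of 10 of the 13 time points ended the call of SPRY4 (adjusted p over all 13 such fits 0.00695 to 0.104). Leaving out the 2 shallow libraries ended the calls of SPRY4 (-0.69, adjusted p = 0.218) and ETV4 (-0.97, adjusted p = 0.122), while PHLDA1 kept its own (-1.52, adjusted p = 0.0195). Without those libraries and with no block, so that the partner libraries at 8 and 12 h stay in, the values were -1.13 for SPRY4, -1.06 for ETV4 and -1.72 for PHLDA1, and the 3 passed (adjusted p = 0.0467, 0.0229 and 0.00253, in that order). Over all 23 alternatives the adjusted p ran from 0.00695 to 0.228 for SPRY4, from 0.00107 to 0.122 for ETV4 and from 0.000632 to 0.0713 for PHLDA1.

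A split of the early set into 4 to 12 h and 16 to 24 h, added after the values were seen, gave the following values, and the windows were not tested against each other. In 4 to 12 h SPRY4 (log2 difference 2.68, adjusted p = 0.000573), SPRY2 (1.38, adjusted p = 0.000831), ETV5 (1.05, adjusted p = 0.00262) and PHLDA1 (0.85, adjusted p = 0.0416) were higher and no member was lower, against 5.13% of all tested genes higher and 14.3% lower. DUSP5 (1.60, SE 0.55, adjusted p = 0.057) and SPRED2 (0.35, SE 0.12, adjusted p = 0.0531) did not pass. In 16 to 24 h PHLDA1 was higher (0.82, adjusted p = 0.0269) and SPRED1 lower (-0.64, adjusted p = 0.0117), against 14.3% of all tested genes higher and 27% lower. SPRY4 (0.84, adjusted p = 0.0796), SPRY2 (0.44, adjusted p = 0.0885) and ETV5 (0.44, adjusted p = 0.0696) did not pass there. Acid was higher at each of these 3 times for SPRY4, SPRY2, ETV5 and PHLDA1.

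Within each medium the levels of 28 to 52 h were set against those of 4 to 24 h. At pH 6.3, ETV4 (log2 difference -0.99, SE 0.21, adjusted p = 0.000623) and SPRY4 (-1.02, SE 0.28, adjusted p = 0.00544) fell and no member rose, against 16.6% of all tested genes lower and 25% higher. At pH 7.4, PHLDA1 (1.45, SE 0.26, adjusted p = 0.000683), SPRED2 (0.61, adjusted p = 0.0174), ETV5 (0.59, adjusted p = 0.0351), SPRY2 (0.65, adjusted p = 0.0421) and SPRED1 (0.53, adjusted p = 0.0429) rose and none fell, against 4.44% of all tested genes higher and 3.14% lower. PHLDA1 passed in each of the 13 fits that left out 1 neutral library (adjusted p 0.000183 to 0.00346). The other 4 neutral calls were weak: SPRED2 passed in 11 of those 13 fits, SPRED1 and ETV5 in 5 and SPRY2 in 3, and without the neutral library at 8 h, or without that at 12 h, 1 member was left. These fits have no block, and time and plate set cannot be told apart in them.

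Because FPKM is scaled to length, the genes can be ranked by level. At pH 6.3 the order of mean levels was ETV5 (33.2 ± 5.25 FPKM), ETV4 (22.7 ± 9.71), SPRED2 (20.3 ± 3.87), PHLDA1 (17.6 ± 6.54), DUSP5 (9.76 ± 4.97), SPRED1 (7.31 ± 0.965), SPRY4 (5.23 ± 4.26), SPRY2 (5.06 ± 1.73), DUSP6 (0.692 ± 0.275) and DUSP4. At pH 7.4 it was ETV4 (27.6 ± 10.6 FPKM), ETV5 (23.9 ± 6.91), SPRED2 (21.3 ± 5.75), PHLDA1 (21.2 ± 11.1), SPRED1 (11.2 ± 3.30), DUSP5 (6.40 ± 3.92), SPRY2 (3.27 ± 1.26), SPRY4 (1.77 ± 0.751), DUSP6 (0.899 ± 0.232) and DUSP4 (SD over 13 times each). Neighbours at the top did not separate beyond their spread: ETV4 exceeded SPRED2 at 6 of 13 times in acid, and SPRED2 exceeded PHLDA1 at 7 of 13 in neutral medium. SPRY4 exceeded SPRY2 at 4 of 13 times in acid, whereas SPRY2 exceeded SPRY4 at 13 of 13 in neutral medium.

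The genes closest in course to 3 members were found by the root mean square distance between mean-centred log2(FPKM + 1) profiles over the 26 libraries, among 8885 genes with at least 5 FPKM on average. For SPRY4, whose own spread on this scale was 0.80, these were REST, TSC22D2, FOSL1, FAM60A and MCL1, at distances of 0.41 to 0.43. PHLDA1, with a spread of 0.70, lay nearest to PDP1, UVRAG, CMTM4, PDP2 and NPC2, at 0.43 to 0.45. DUSP6 lay nearest to HP1BP3, CTNNA1, PAFAH1B2, UBAP1 and RAC1, at 0.16 to 0.18, distances close to its own spread of 0.21, so the nearest genes are mainly ones that vary little. Among the members, DUSP5 and SPRY4 were each other's closest (0.47, beside own spreads of 0.69 and 0.80). So were SPRY2 and ETV5 (0.36, beside own spreads of 0.49 and 0.45) and SPRED1 and SPRED2 (0.36, hardly below their own spreads of 0.41 and 0.37). PHLDA1 was closest to SPRED2 at 0.56 and ETV4, with a spread of 0.54, to DUSP6 at 0.45. The points share libraries and plate sets, so these are descriptions.

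The rest of the pathway, in 8 lists chosen by function, moved in both directions. The counts over 13 times below stand beside 22.4% of all tested genes higher and 37.3% lower, and those of the receptors, for one, are near these shares. Over 13 times the median log2 difference was 0.33 for 12 tested growth factor ligands, of which 5 were higher and 2 lower, and -0.30 for 13 receptor tyrosine kinases, of which 3 were higher and 5 lower. TGFA, a ligand of the EGF receptor, averaged 6.50 ± 1.502 FPKM at pH 6.3 and 2.62 ± 0.703 FPKM at pH 7.4 (log2 difference 1.05, adjusted p = 1.67e-06), and FGF2 10.6 ± 3.01 FPKM at pH 6.3 and 6.59 ± 2.66 FPKM at pH 7.4 (0.64, adjusted p = 0.00293). PDGFC, a platelet-derived growth factor, was lower, with 75.0 ± 14.8 FPKM in acid against 124.6 ± 8.61 FPKM in neutral medium. Of the receptors, MET (0.82) and the collagen receptor DDR2 (0.42) were higher, and the insulin-like growth factor receptor IGF1R (-1.25; 13.9 ± 7.03 FPKM at pH 6.3, against 32.8 ± 9.07 FPKM in neutral medium) and AXL (-0.87) were lower.

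The core of the cascade changed in single genes. Among 13 genes of RAS activation 1 was higher and 3 were lower (median -0.04): the adaptor SHC1 (0.41) was higher, and the phosphatase PTPN11 (-0.54) and NRAS (-0.39) were lower. Of 11 RAF, MEK and ERK kinases and scaffolds 2 were higher and 2 lower (median 0.01). MAP2K1, which encodes MEK1, averaged 55.0 ± 6.99 FPKM at pH 6.3 and 31.6 ± 5.11 FPKM at pH 7.4 (0.78, adjusted p = 8.46e-06), and BRAF was higher by 0.46. The scaffold KSR1 was lower (-0.85). PTPN11, BRAF and NF1 have pseudogene copies, and no source used here says how shared reads were split.

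Other brakes and outputs included the widest differences of the lists. Of 9 further brakes on RAS and receptors 1 was higher and 3 lower (median -0.19). ERRFI1, a feedback inhibitor of the EGF receptor that glucocorticoids also induce, averaged 283.2 ± 97.9 FPKM at pH 6.3 and 93.1 ± 33.9 FPKM at pH 7.4 (1.56, adjusted p = 6.55e-06), and the RAS inactivators RASAL2 (-0.53) and NF1 (-0.47) were lower. Of 9 other dual-specificity phosphatases 4 were higher and 1 lower (median 0.37). DUSP1, which acts on p38, JNK and ERK and is likewise a glucocorticoid target, averaged 153.2 ± 28.5 FPKM at pH 6.3 and 30.8 ± 18.7 FPKM at pH 7.4 (2.45, adjusted p = 1.16e-08), higher in acid at 13 of 13 times, and DUSP7 was higher by 0.57.

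Of 16 ERK effector kinases and ETS factors 5 were higher and 3 lower (median 0.11). The translation-linked kinases MKNK2 (1.02) and MKNK1 (0.74) were higher, and the kinase RPS6KA3 (-0.70) and the ETS factor ELK3 (-0.46) were lower. Among 14 tested other ERK-responsive genes 5 were higher and 2 lower over 13 times (median 0.35). FOS, a subunit of AP-1, averaged 6.42 ± 2.05 FPKM at pH 6.3 and 1.92 ± 0.668 FPKM at pH 7.4 (1.32, adjusted p = 1.09e-06), and PLAUR, the urokinase receptor, 44.3 ± 15.3 FPKM at pH 6.3 and 19.6 ± 6.86 FPKM at pH 7.4 (1.14). CCND1, cyclin D1, was lower, with 12.9 ± 6.18 FPKM in acid against 24.1 ± 5.69 FPKM in neutral medium (-0.92, adjusted p = 0.000319), as was LIF (-0.75). In this list 4 genes were higher and 4 lower in 28 to 52 h (median 0.01), and 8 were higher and none lower in 4 to 24 h (median 0.86, beside -0.10 late and -0.14 early for all tested genes). Of all tested genes 25.2% were higher and 33.4% lower in 28 to 52 h, near the shares of this list, and 11.9% were higher and 28% lower in 4 to 24 h. The late effect was lower than the early one by the interaction test in 4 of the 14, and higher in 0, against 6.56% of all tested genes lower and 10.5% higher.

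**Figure D4:**
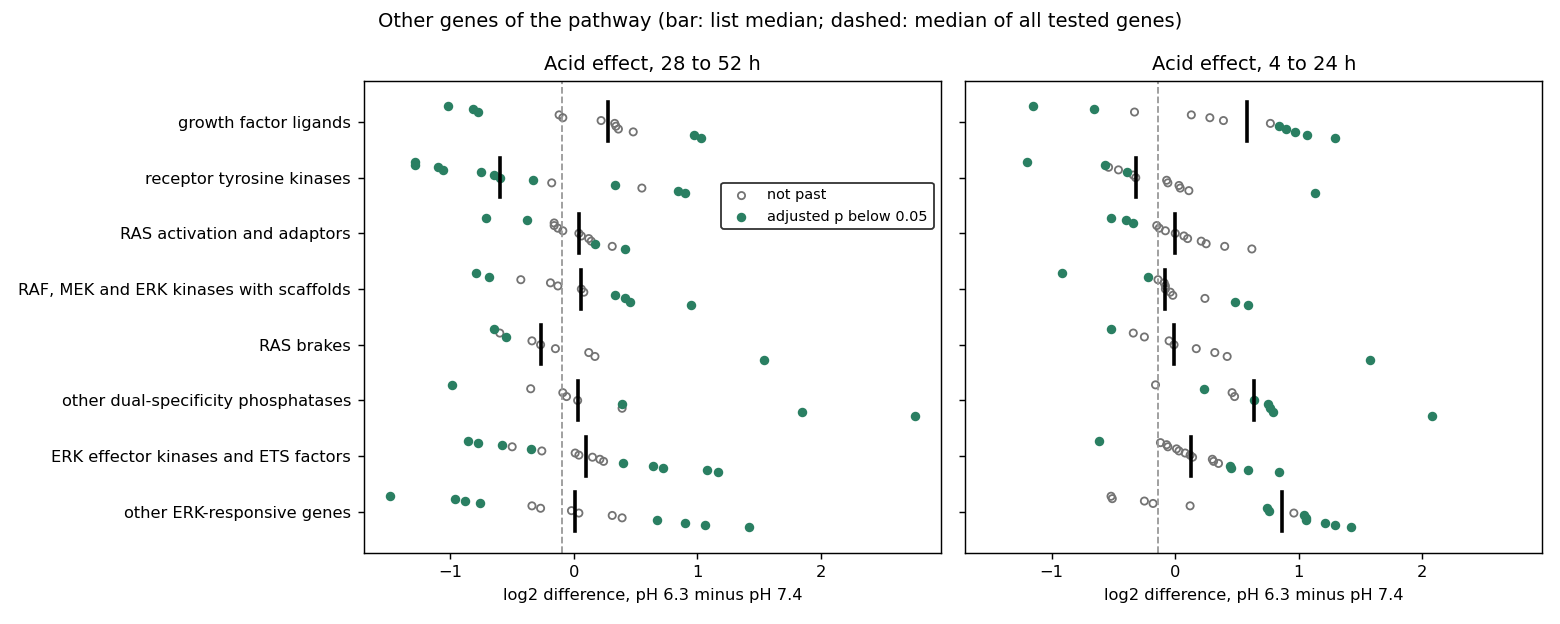
Log2 difference, pH 6.3 minus pH 7.4 (x axis), of each tested gene of the 8 lists (rows) within 28 to 52 h (left) and 4 to 24 h (right), filled green for an adjusted p below 0.05, with a black bar at the list median and a dashed line at the median of all tested genes. The median of the other ERK-responsive genes lies at 0.01 in the left panel and at 0.86 in the right panel.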

How the data were processed

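Polyadenylated RNA of U2OS cells was sequenced at 13 times in each of 2 media, 26 libraries in all, from a stranded kit, with RNA integrity numbers of 8.7 to 10 per the labels' protocols. The authors deposited 1 table of FPKM values. Per the submitters' processing notes, STAR, Cufflinks and hg38 were used; their versions, the annotation and any use of strand are not stated in those notes.

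From there, symbols on several rows were taken as the row with the highest mean, and genes averaging 1 FPKM or more were tested as log2(FPKM + 1) by limma 3.58.1, run in R 4.3.3 (moderated variances with a mean trend, time point as a block, Benjamini-Hochberg adjustment over 11838 genes). The acid effect is the mean of within-time differences, and its change between 28 to 52 h and 4 to 24 h is the interaction of pH and plate set. The media of a time point are paired because the labels' protocols say they were collected together. FPKM are not counts, so no count test was used; depth was read from low values of 1808 single-transcript genes of 1000 bases or more, by the spacing that 1 fragment gives, and 87.7% to 94.4% of values from 0.5 to 3.5 fragments lay within 0.1 of a whole number. No 2 libraries were identical.

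The members, lists and tests were chosen with earlier results of these data known. Named list genes are the up to 2 largest increases and 2 largest decreases per list that passed, with at least 5 FPKM in the higher medium. Some items that this rule takes in are not reported here. Alternatives were another pseudocount (0.1), no filter, upper-quartile, quantile and GC-corrected values, limma without a trend, fewer libraries, no block, and each time point left out; the windows and the joint change of block and libraries were added after seeing the data. The fit was tested on simulated data. Promoters come from RefSeq (GRCh38.p14) and coordinates from GENCODE 29. Protein sequences were not used here.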

Additional observations from a re-analysis of the deposited data

Results flagged for a closer look

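DUSP5 at pH 7.4 and 4 h, at 17.9 FPKM, stood apart from the other 5 neutral libraries of 4 to 24 h, of which the nearest had 6.50 FPKM; the gap is 0.711 of the range of the 6. ETV5 at pH 7.4 and 32 h, at 33.2 FPKM, stood apart from the other 6 neutral libraries of 28 to 52 h, with the nearest at 28.1 FPKM and a gap of 0.683 of the range. In all 36 groups of member, medium and plate set were examined, and chance flags about 1 in 20, so 2 is about what chance gives.

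The acid effect differed between 28 to 52 h and 4 to 24 h by the limma interaction test for SPRY4 (-1.43 on the log2 scale), ETV4 (-1.20) and PHLDA1 (-1.77). Plate set and time in medium cannot be told apart in these values.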

How the results depend on the processing

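With 1 library per medium and time, errors cover the spread over times, and depth limits DUSP4 and DUSP6 most. Of 472 values of single members under alternatives other than leaving out a time, 415 kept their direction and side of the threshold, 29 lost a call, 14 gained one and 14 changed sign; of 520 with 1 time or library left out these were 473, 37, 8 and 2. Causes were not tested.

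Sign changes touched values that had not passed. Without the 2 shallow libraries they were DUSP5 in 4 to 24 h (-0.02) and in the interaction (0.27), SPRED2 in 4 to 24 h (-0.04) and SPRY2 between plate sets at pH 6.3 (0.01). Without 6 libraries they were DUSP5 in 4 to 24 h (-0.04) and in the interaction (0.39), SPRED2 (-0.03) and ETV4 (-0.05) in 4 to 24 h. Quantile normalization turned SPRED2 over 13 times (0.05) and SPRED1 in 4 to 24 h (0.02), GC correction turned SPRED2 (0.09) and PHLDA1 (0.02) over 13 times, and the windows turned SPRED1 in 4 to 12 h (0.28) and SPRED2 in 16 to 24 h (-0.17). Leaving out the acid library at 4 h or at 8 h turned SPRY2 between plate sets at pH 6.3 (0.14 and 0.01; -0.12 to 0.14 over 13 such fits).

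Counts of member calls moved as follows. Over 13 times, 1 lower became 2 without the 2 shallow libraries, 2 without 6 libraries and 0 with quantile normalization. In 4 to 24 h, 4 higher became 1 without 6 libraries and 1 in 16 to 24 h alone, and 0 lower became 1 (SPRED1) without the 2 shallow libraries and 1 (SPRED1) in 16 to 24 h alone. In 28 to 52 h, 0 higher became 1 without the 2 shallow libraries and 1 with GC correction. In the interaction, 3 lower became 1 without the 2 shallow libraries, 0 without 6 libraries and 5 with GC correction. Between plate sets at pH 7.4, 5 higher became 1 without the 2 shallow libraries, 1 without 6 libraries, 3 with no filter and 3 with quantile normalization.

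With 1 time or library left out, higher calls ranged from 3 to 4 over 13 times, 4 to 5 in 4 to 24 h, 0 to 1 between plate sets at pH 6.3 and 1 to 5 at pH 7.4. Lower calls were 1 over 13 times, 0 in 4 to 24 h, 3 in 28 to 52 h, 2 to 5 in the interaction and 2 between plate sets at pH 6.3.

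Without the replicate block, DUSP5 passed over 13 times (0.57, adjusted p = 0.0419; 0.0329 to 0.525 over 23 alternatives) and in 4 to 24 h (0.94, adjusted p = 0.0322; 0.0147 to 0.974 over 18 alternatives), and no other call of a member changed.

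Counts over all genes moved by over 1.5 times in 4 to 24 h (1414 higher and 3316 lower, against 494 and 759 without 6 libraries and 2709 higher with GC correction), in the interaction (1248 higher and 777 lower, against 454 and 250 without the 2 shallow libraries, 2 and 0 without 6 libraries and 1485 lower with GC correction) and between plate sets at pH 7.4 (526 higher and 372 lower, against 288 and 204 without 6 libraries, 247 lower without the 2 shallow libraries and 687 lower with GC correction).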
